A study of Mus musculus with 6 samples.

Results

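The genes described here are Hnf4a and 8 liver transcription factors that work beside it: Foxa1, Foxa2, Foxa3, Cebpa, Cebpb, Onecut1, Onecut2 and Prox1. They are grouped for their known role in hepatocyte identity. All 9 were among the 43346 gene IDs of the count files, and all 9 passed the filter on low counts that left 15561 genes for testing. The study sequenced total RNA of whole liver from C57BL6 mice aged 3 months, in 3 libraries of genotype Control and 3 of genotype DKO, the loss of both β-catenin and γ-catenin in hepatocytes. The labels do not give the Cre driver, the alleles or what the Control mice carried. They also do not say whether each replicate is a separate animal, so p-values measure the spread between libraries only, which may be technical. The title of the series places HNF4α signaling among its questions, which the comparison of Hnf4a and its partners between DKO and Control addresses.

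HNF4A is a nuclear receptor that binds DNA as a homodimer and activates many genes of the mature hepatocyte, among them those for apolipoproteins, clotting factors and bile acid enzymes. FOXA proteins are pioneer factors that bind their sites in compact chromatin and let other factors reach liver enhancers, and C/EBPα and C/EBPβ are leucine zipper factors of metabolic and acute phase genes. ONECUT1, also called HNF6, and ONECUT2 are cut-homeodomain factors of liver and bile duct development, and PROX1 is a homeobox factor of hepatoblasts, hepatocytes and lymphatic endothelium that also acts as a corepressor of HNF4A.

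Start-site sequences are shown for 3 of these genes: each window that holds a FOXA or ONECUT motif, and the downstream Hnf4a window for its HNF1 half-sites. Liver transcription factors, HNF1 among them, are known to bind at each other's promoters. RefSeq start-site windows on GRCm38.p6, the assembly also called mm10, were found for 8 of the 9 genes, 12 windows in all. Onecut2 had no entry. Hnf4a has an upstream promoter and a downstream promoter, the latter known as the main one of adult liver. Each sequence runs 5′ to 3′ on the gene's own strand, and capitals mark the motif match. It is the longest stretch of the window without annotated exon bases of the gene. The downstream Hnf4a window and the Foxa1 window lie inside the annotated gene, and the downstream Hnf4a window lost its exon bases at the 5′ end. The upstream Hnf4a window lies at chr2:163506607-163506807 on the plus strand, and its capitals mark the ONECUT motif ATCAATA. The downstream Hnf4a window lies at chr2:163546943-163547154 on the plus strand, and its capitals mark 2 copies of the HNF1 half-site GTTAAT, read on the minus strand. The Foxa1 window lies at chr12:57546122-57546361 on the minus strand, and its capitals mark the FOXA motif TGTTTAC on the opposite strand. The Foxa2 window lies at chr2:148046970-148047219 on the minus strand, and its capitals mark ATCAATA on the opposite strand.
Hnf4a, upstream start: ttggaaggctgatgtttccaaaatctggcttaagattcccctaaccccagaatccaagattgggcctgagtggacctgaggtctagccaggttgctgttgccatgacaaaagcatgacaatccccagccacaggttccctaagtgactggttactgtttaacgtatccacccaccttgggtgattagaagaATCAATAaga
Hnf4a, downstream start: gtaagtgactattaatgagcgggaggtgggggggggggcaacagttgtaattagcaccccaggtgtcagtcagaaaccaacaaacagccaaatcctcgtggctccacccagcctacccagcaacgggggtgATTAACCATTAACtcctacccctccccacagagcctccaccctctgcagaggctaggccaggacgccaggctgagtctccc
Foxa1: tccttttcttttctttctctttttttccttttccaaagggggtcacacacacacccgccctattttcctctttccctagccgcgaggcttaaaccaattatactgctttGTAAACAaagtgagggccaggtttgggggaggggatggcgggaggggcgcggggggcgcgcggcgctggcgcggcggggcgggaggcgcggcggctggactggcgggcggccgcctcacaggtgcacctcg
Foxa2: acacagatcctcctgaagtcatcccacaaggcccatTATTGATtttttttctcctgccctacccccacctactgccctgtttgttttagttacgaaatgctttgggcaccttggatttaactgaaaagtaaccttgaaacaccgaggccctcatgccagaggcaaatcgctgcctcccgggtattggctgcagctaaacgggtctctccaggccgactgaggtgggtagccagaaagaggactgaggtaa

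Both strands of the 250 bases before each start were searched, and a match is a description of letters, not of binding. ATCAATA was in 2 of the 12 windows and in 1.86% of 32851 RefSeq windows of the same length. TGTTTAC was in 1 of the 12 windows and in 3.17% of all windows. The other FOXA form TATTTAC (2.73% of all windows), the HNF4 motif CAAAGTCCA (0.384%) and the C/EBP motif TTGCNNAA (9.56%) were in 0 of the 12. HNF1 was searched in 3 forms in turn. The first, GTTAAT followed by a free base and ATTAA, was in 0 of the 12 windows and 0.0609% of all. The other 2 forms were chosen after that search had found nothing and the windows had been read. GTTAAT followed by 2 free bases and TTAA was then in 1 of the 12, the downstream Hnf4a window, against 0.131% of all, and the half-site GTTAAT alone was in 2 of the 12, the same Hnf4a window and 1 Foxa2 window not shown, against 6.43% of all. No HNF1 match is therefore independent of the sequence shown. Counts per gene pool the reads of both Hnf4a promoters, so the promoters were not compared between the groups.

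The Control and DKO libraries differed in their makeup, which touches each result. The share of reads assigned to genes was 33.3% to 34.9% for Control, while DKO replicates 1, 2 and 3 had 2.68%, 4.58% and 4.74%, or 12320487 to 15869639 reads against 309731, 525037 and 1491237. The 163 nuclear genes with over 30000 summed Control reads, called abundant liver genes below, held 42.9% to 43.3% of gene reads in Control and 1.16%, 21.1% and 2.58% in DKO. Mitochondrial reads were 6.34% to 6.57% of gene reads in Control and 6.27%, 14.4% and 62.7% in DKO, and TMM factors were 0.783 to 0.827 against 2.68, 1.14 and 0.641, so DKO replicate 3 stood apart in its mitochondrial share and DKO replicate 1 in its scaling. Neither the gene share nor the abundant share overlapped between the groups (two-sided exact permutation test, p = 0.1, the smallest that 3 against 3 allows). Ctnnb1, which encodes β-catenin, had 2945, 2896 and 2650 reads in Control and 0, 52 and 65 in DKO, and Jup, which encodes γ-catenin, had 339, 270 and 196 against 6, 1 and 11. Neither passed the test (edgeR adjusted p = 0.171 and 0.0847), so the libraries are called DKO here as labelled. RNA quality, the yield of liver RNA and the genotype cannot be told apart. In bulk liver, fewer hepatocytes and less RNA of a gene per hepatocyte cannot be told apart either.

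In Control liver, the levels per length spanned a wide range. Read counts scaled to library size (CPM) with TMM factors, divided by the kilobases of annotated exon, put Cebpa first at 214 ± 45.2 CPM per kb (SD, n = 3). Hnf4a followed at 109 ± 11 and Cebpb at 89.4 ± 40.8. Foxa3 stood at 45.1 ± 13.3, Prox1 at 15.1 ± 4.79 and Foxa2 at 10.2 ± 0.29. The lowest were Foxa1 at 7.23 ± 1.56, Onecut2 at 5.76 ± 0.74 and Onecut1 at 4.47 ± 2.33. The Control libraries of Cebpa and Hnf4a did not overlap, nor did those of Foxa3 and Prox1, Prox1 and Foxa2, or Foxa2 and Foxa1. Those of Hnf4a and Cebpb, Cebpb and Foxa3, Foxa1 and Onecut2, and Onecut2 and Onecut1 did, so those neighbours were not separated across libraries. Within each of the 3 Control libraries, Cebpb was nevertheless above Foxa3, Foxa1 above Onecut2 and Onecut2 above Onecut1, while Hnf4a was above Cebpb in Control replicate 1 only. Within the FOXA family, Foxa3 was thus the highest per length in Control liver, and within the C/EBP pair it was Cebpa.

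**Figure D1:**
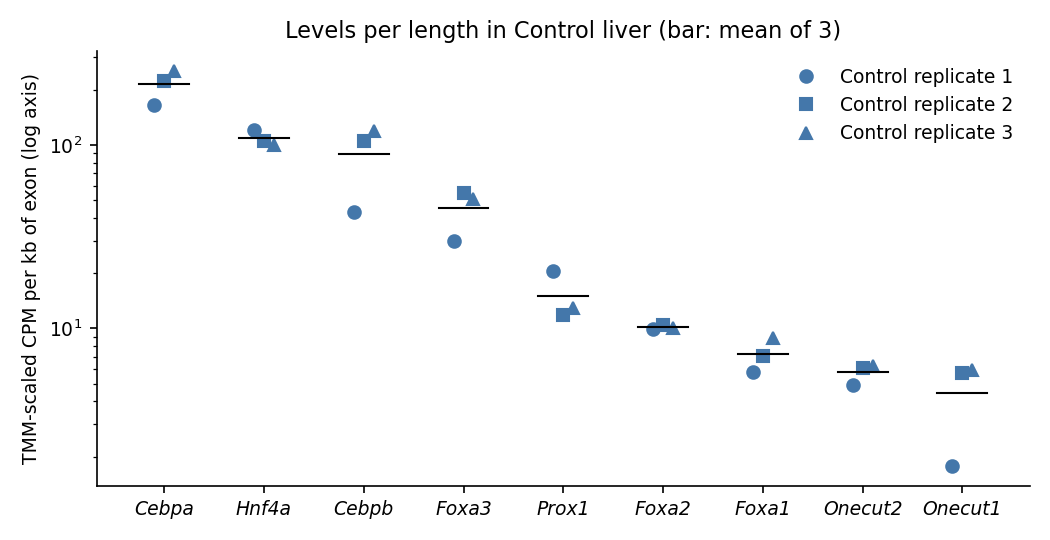
Level of each of the 9 genes in the 3 Control libraries, in CPM per kb of annotated exon on a log axis, with a marker for each library and a bar at the mean of the 3. Cebpa, at 214 CPM per kb, is the highest and Onecut1, at 4.47, the lowest.

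The spread between Control libraries also differed by gene. CPM of Foxa2 were within 1.06-fold of each other over the 3 libraries and those of Hnf4a within 1.21-fold. Onecut1 varied 3.33-fold, from 7.33 to 24.4 CPM, and Cebpb 2.79-fold, from 64.6 to 180 CPM. In both genes Control replicate 1 was the low library.

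Between the groups, 1 of the 9 genes, Foxa1, fell in DKO, and 0 rose (edgeR quasi-likelihood test, Benjamini-Hochberg adjusted p under 0.05). The share of 11.1% that fell stood beside 12.8% of all 15561 tested genes, and 31.3% of all tested genes rose. In 4 of the 9 genes, Hnf4a, Foxa1, Cebpa and Prox1, every DKO library lay below every Control library, against 36.4% of all tested genes. All 9 fitted log2 fold changes of DKO against Control were negative, with a median of −1.71 against −0.08 over all tested genes. Among the 6132 tested genes within the same range of Control CPM, the median was −1.65, 22.5% fell and 66.5% had every DKO library below every Control library. The median of the 9 was thus close to that of genes of like level, and the shares of the 9 that fell or did not overlap were below theirs, with no test of that difference.

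**Figure D2:**
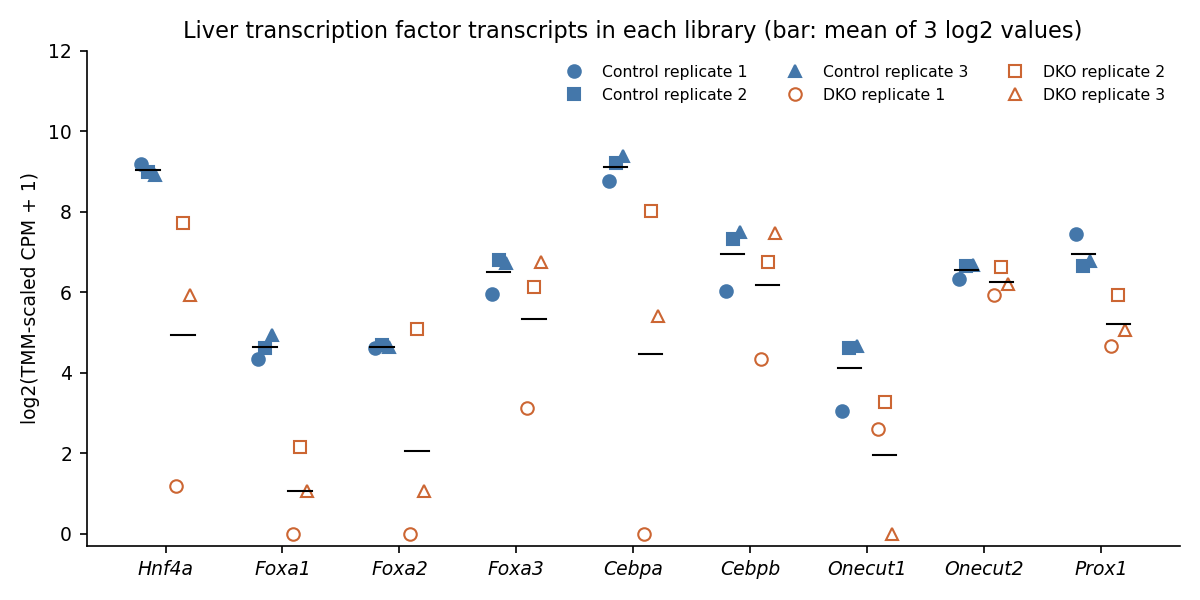
CPM of the 9 genes in each of the 6 libraries, as log2(CPM + 1), with a marker for each library and a bar at the mean of each group's 3 log2 values. Foxa1 is at 0, 3.44 and 1.08 CPM in the DKO libraries, while Cebpb in DKO replicate 3 lies within the Control range.

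Hnf4a (ENSMUSG00000017950, chr2:163506808-163572910, plus strand) had 584, 505 and 483 CPM in Control and 1.27, 208 and 59.5 CPM in DKO. The DKO libraries lay below Control without overlap and differed widely from each other, from 1 read in DKO replicate 1 to 121 in DKO replicate 2. The log2 fold change of −2.55 (SE 1.39) did not pass the test (edgeR adjusted p = 0.152). It passed without DKO replicate 1 (−2.10, edgeR adjusted p = 0.0352, where 22.0% of tested genes fell) and without DKO replicate 2 (−4.26, edgeR adjusted p = 0.0417, where 26.7% fell). It did not pass with limma-voom, with background reads subtracted, with the replicate block or without any one of the Control libraries.

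Of the FOXA genes, Foxa1 (ENSMUSG00000035451, chr12:57540628-57546916, minus strand) had 19.2, 23.5 and 29.5 CPM in Control and 0, 3.44 and 1.08 CPM in DKO. Its DKO values rest on 0, 2 and 1 reads, at or under the limit that a count of 0 allows, which was 3.25 to 5.16 CPM in these libraries. It fell by 4.13 on the log2 scale (SE 0.96, edgeR adjusted p = 0.0068). The call held in 14 of 15 alternatives and was lost when libraries were scaled on the 163 abundant liver genes (−1.10, edgeR adjusted p = 0.358).

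Foxa2 (ENSMUSG00000037025, chr2:148042877-148046969, minus strand) had 23.6, 24.9 and 23.8 CPM in Control and 0, 32.7 and 1.08 CPM in DKO. DKO replicate 2 lay above all Control libraries and the other two at or near 0, so the groups overlapped (log2 fold change −1.20, SE 1.18, edgeR adjusted p = 0.411). Without DKO replicate 2 it fell by 5.49 (edgeR adjusted p = 0.00362). Foxa3 (ENSMUSG00000040891, chr7:19013284-19023538, minus strand) had 61.0, 111 and 104 CPM in Control and 7.64, 68.8 and 107 CPM in DKO. Only DKO replicate 1 lay below the Control range (−0.59, SE 0.85, edgeR adjusted p = 0.582), and Foxa3 was called in 0 of the 15 alternatives.

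Of the C/EBP genes, Cebpa (ENSMUSG00000034957, chr7:35119293-35121928, plus strand) had 436, 588 and 671 CPM in Control and 0, 256 and 41.1 CPM in DKO. The groups did not overlap, and the DKO libraries stood in the same order as for Hnf4a (−2.52, SE 1.58, edgeR adjusted p = 0.205). Without DKO replicate 2 it fell by 4.92 (edgeR adjusted p = 0.039). Cebpb (ENSMUSG00000056501, chr2:167688915-167690418, plus strand) had 64.6, 159 and 180 CPM in Control and 19.1, 107 and 175 CPM in DKO. DKO replicates 2 and 3 lay within the Control range (−0.42, SE 0.90, edgeR adjusted p = 0.710), and Cebpb was called in 0 of the 15 alternatives.

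Onecut1 (ENSMUSG00000043013, chr9:74861921-74891781, plus strand) had 7.33, 23.4 and 24.4 CPM in Control and 5.09, 8.60 and 0 CPM in DKO, or 4, 5 and 0 reads. Background reads alone, estimated as described below, would give 8.14, 5.99 and 14.9 reads. The counts were within counting error of these in DKO replicates 1 and 2 and below in DKO replicate 3. DKO replicate 2 lay above Control replicate 1 (−2.10, SE 1.04, edgeR adjusted p = 0.123). Onecut1 passed with no filter on low counts (−2.37, edgeR adjusted p = 0.0296) and with background reads subtracted (−9.76, edgeR adjusted p = 0.0219), where the size depends on DKO reads near 0. Without DKO replicate 2 or 3 it was at −3.09 and −1.12 and did not pass. Onecut2 (ENSMUSG00000045991, chr18:64340020-64400987, plus strand) had 79.8, 99.3 and 102 CPM in Control and 59.8, 98.0 and 72.5 CPM in DKO. It had the smallest fold change of the 9 (−0.29, SE 0.60, edgeR adjusted p = 0.705). Its direction turned with the scaling, to 0.50 without normalization factors and to 5.19 when scaled on abundant liver genes (edgeR adjusted p = 0.0299), where 62.5% of all tested genes rose.

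Prox1 (ENSMUSG00000010175, chr1:190118035-190170714, minus strand) had 173, 99.0 and 108 CPM in Control and 24.2, 60.2 and 32.5 CPM in DKO. The groups did not overlap, and the fold change of −1.71 (SE 0.67) was close to the threshold (edgeR adjusted p = 0.0634). It passed without DKO replicate 1 (−1.60, edgeR adjusted p = 0.0254) and without DKO replicate 2 (−2.32, edgeR adjusted p = 0.0148). It did not pass without normalization factors (−1.01, edgeR adjusted p = 0.271) or with background reads subtracted (−2.09, edgeR adjusted p = 0.173). Nor did it pass with the replicate block or without any one of the Control libraries. Prox1 was called in 5 of the 15 alternatives. Summed CPM of the lymphatic endothelium markers, another cell type with Prox1, were 22.7 to 41.7 in Control and 17.2 to 36.9 in DKO, and their part in the Prox1 values was not tested.

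The number of the 9 genes that fell depended on the method. With DESeq2 it was 3 (Foxa1, Hnf4a and Prox1), where 30.7% of all tested genes fell. With DESeq2's size factors in edgeR it was 2 (Foxa1 and Prox1), where 23.0% fell, and with no filter on low counts it was 5, where 15.4% of 30209 genes fell. It was 3 with DKO replicate 2 alone against Control, a comparison chosen after seeing the data, where 28.6% fell and the lone library is assumed to vary like Control. There Hnf4a fell by 1.32, Foxa1 by 2.79 and Cebpa by 1.13 on the log2 scale (edgeR adjusted p = 0.000455, 0.00869 and 0.00447).

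**Figure D3:**
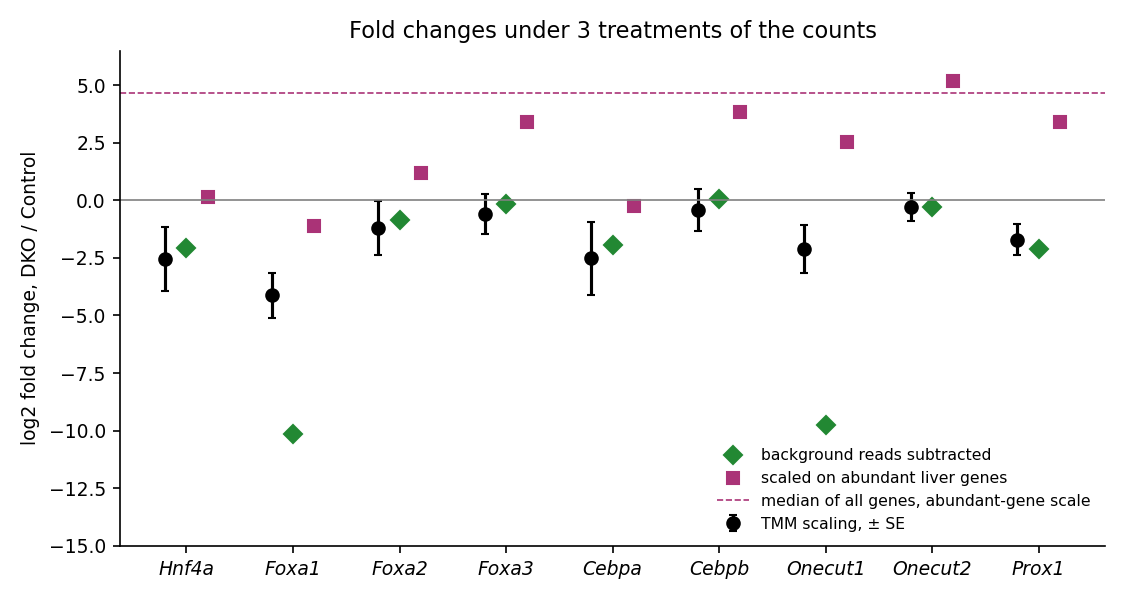
Log2 fold change of DKO against Control for the 9 genes with TMM (with SE), with background reads subtracted and with libraries scaled on abundant liver genes, where the dashed line is the median of all tested genes. All 9 are negative with TMM, and 2 of the 9 are negative on the scale of abundant liver genes.

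The scaling of the libraries moved all genes. Libraries scaled on the 163 abundant liver genes had a median log2 fold change over all tested genes of 4.68, a shift of 4.76 from TMM, and 9718 genes rose and 85 fell against 4871 and 1992 with TMM. Relative to those abundant transcripts, the median of the 9 genes was 2.54, Cebpb was at 3.85, Foxa3 at 3.42 and Prox1 at 3.42, and Hnf4a was at 0.14 and Cebpa at −0.23. Hnf4a and Cebpa thus stood close to the abundant liver transcripts, while Cebpb and Foxa3 stood well above them without passing the test.

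A sum of 2 parts was set beside the reads of each gene in each DKO library. The first was its Control level times the library's share of abundant liver transcripts. The second was the rate of reads per kb over 8600 protein-coding genes with at most 10 summed Control reads, taken at like GC content. For Hnf4a the sum was 118 reads in DKO replicate 2, where 121 were counted, a ratio of 1.02 (exact Poisson 95% interval 0.85 to 1.22). It was 48.7 in DKO replicate 3, where 55 were counted, and 11.7 in DKO replicate 1, where 1 was counted. Hnf4a was thus within counting error of the sum in DKO replicates 2 and 3 and below it in DKO replicate 1. Prox1 was within it in all 3 libraries, with 19, 35 and 30 reads against 14.0, 37.0 and 29.8. The second part alone was 13.3, 9.46 and 21.8 reads for Prox1. Its reads in DKO replicates 1 and 3 were within counting error of that part alone, and those in DKO replicate 2 were above it.

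Cebpb lay above its sum in all 3 DKO libraries. It had 15 reads against 3.15, 62 against 29.3, and 162 against 12.7, the last a ratio of 12.8 (10.9 to 14.9). Onecut2 was also above in all 3, with 47, 57 and 67 reads against 17.8, 29.5 and 31.5. Foxa3 had 40 against 21.5 in DKO replicate 2 and 99 against 12.2 in DKO replicate 3, a ratio of 8.13 (6.61 to 9.90). Foxa1 was below in all 3, with 0, 2 and 1 reads against 6.25, 9.32 and 12.5. Over the 9 genes, 2, 5 and 3 lay above the sum in DKO replicates 1, 2 and 3, and 4, 1 and 3 below. Of 6126 other genes with like Control counts, 25.4%, 25.6% and 36.8% lay above it and 35.0%, 24.7% and 27.0% below. These intervals cover counting error only, and the second part is a mean over genes that leaves out how single genes vary.

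**Figure D4:**
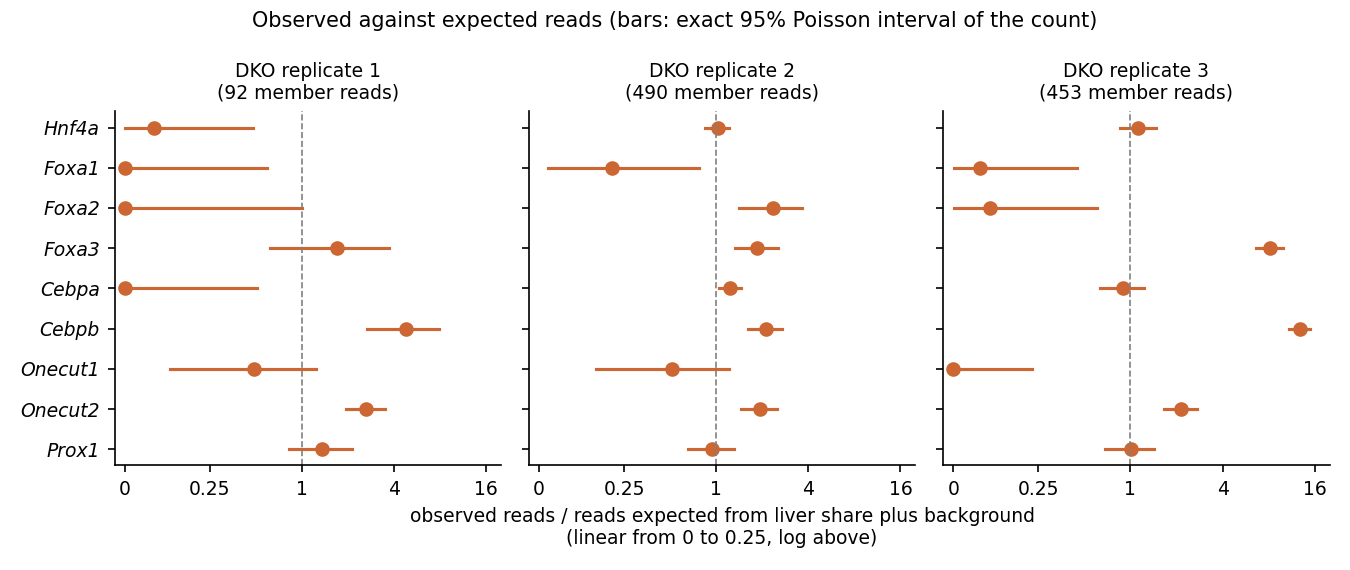
Reads counted over the sum of scaled liver transcripts and background rate for the 9 genes in the 3 DKO libraries, on an axis that is linear from 0 to 0.25 and log above, with exact Poisson 95% intervals and a dashed line at 1. Cebpb and Onecut2 lie above the line in all 3 libraries, Prox1 spans it in all 3 and Foxa1 lies below it in all 3.

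Shares within a gene family need no scaling between libraries, but background reads were not taken out of them. In DKO replicate 1 the background rate alone gave 2.48 reads for Cebpb, 3.07 for Foxa3, 8.14 for Onecut1 and 17.3 for Onecut2. The shares were computed after seeing the data, so they carry no test. Of the reads of Cebpa and Cebpb, Cebpb held 12.9%, 21.2% and 21.2% in Control. It held 100% in DKO replicate 1 (15 of 15 reads, exact Clopper-Pearson 95% interval 78.2% to 100%), 29.4% in DKO replicate 2 (23.3% to 36.0%) and 81.0% in DKO replicate 3 (74.9% to 86.2%). All 3 DKO shares were above the Control shares. Of the reads of the FOXA genes, Foxa3 held 58.8%, 69.6% and 66.1% in Control and 100%, 65.6% and 98.0% in DKO. The share in DKO replicate 2 lay within the Control range and those of DKO replicates 1 and 3 above it. That of DKO replicate 1 rests on 6 of 6 reads, and its interval of 54.1% to 100% covers the Control shares. The interval of DKO replicate 3 was 93.0% to 99.8%. Onecut2 held 80.6% to 91.6% of the reads of Onecut1 and Onecut2 in Control and 92.2%, 91.9% and 100% in DKO. The intervals of DKO replicates 1 and 2, 81.1% to 97.8% and 82.2% to 97.3%, reached into the Control range.

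Genes known to be bound or activated by HNF4A in hepatocytes had negative fold changes in every case, and few passed the test. Of 48 such genes, all tested and all 48 negative, 4 (8.33%, against 12.8% of all tested genes) fell and 0 rose, with a median log2 fold change of −2.81 against −0.08 over all tested genes. In 47 of the 48 (97.9%), every DKO library lay below every Control library, against 36.4% of all tested genes. That share was 66.5%, with a median of −1.65, among the 6132 tested genes within the 9 members' range of Control CPM. That range of means is 18.4 to 565 CPM, and genes of the 48 such as Alb, at 87855, and Apoe, at 24033, lie far above it. The 48 were thus not set beside genes of like level. Scaled on abundant liver genes, the median of the 48 was 0.23. Some of the 48, Alb and Apoe among them, are also among the abundant genes that set this scale. That median is therefore not independent of the scaling. Cyp8b1, the sterol 12α-hydroxylase of bile acid synthesis, had 132, 147 and 128 CPM in Control and 6.37, 18.9 and 0 CPM in DKO and fell by 4.09 (edgeR adjusted p = 0.0127). Apoa4, an apolipoprotein gene, fell by 3.28 (edgeR adjusted p = 0.0169) and F7, which encodes clotting factor VII, by 3.07 (edgeR adjusted p = 0.0201). The fourth, Dio1, which encodes a deiodinase of thyroid hormone and was named after its value was seen, fell by 3.79 (edgeR adjusted p = 0.0355). With background reads subtracted, all 4 calls were lost while the fold changes stayed of like size, at −4.01 for Cyp8b1, −3.17 for Apoa4, −2.87 for F7 and −3.53 for Dio1. On the scale of abundant liver genes all 4 were lost too, with Cyp8b1, Apoa4 and F7 at 0.81, 0.81 and 0.87 and Dio1 at −0.70. The Cyp8b1 call was also lost with limma-voom (adjusted p = 0.0561), that of Apoa4 without Control replicate 1, and that of F7 without any one of the Control libraries. The Dio1 call was also lost with limma-voom, without any one of the Control libraries and without DKO replicate 3. Alb, the albumin gene, had a log2 fold change of −2.98 (edgeR adjusted p = 0.198) and Apoe of −3.09 (edgeR adjusted p = 0.158). Summed CPM of 6 hepatocyte markers were 107243 to 117675 in Control and 645, 35639 and 6443 in DKO, the same order of DKO libraries as for Hnf4a, and their part in these values was not tested.

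Of 20 C/EBP target genes, 2 rose (10%) and 1 fell (5%), with a median of −2.32, against 31.3% and 12.8% of all tested genes. Saa3, a serum amyloid gene, had 105, 62 and 59 reads in Control and 0 in all DKO libraries, at least 5.12-fold lower with DKO set at 3 counts over its libraries (edgeR adjusted p = 0.0101). Saa2 rose by 3.91 (edgeR adjusted p = 0.0139), with 39, 38 and 417 reads in DKO, and the call was lost without any one of the Control libraries. Lcn2, the lipocalin 2 gene, rose by 2.63 (edgeR adjusted p = 0.0496), and that call was lost with background reads subtracted, limma-voom and the replicate block, without any one of the Control libraries, without DKO replicate 3 and with DKO replicate 2 alone. Reads of the Saa genes can be shared between near-identical copies, so their split is uncertain. Of 14 tested FOXA target genes, 1 rose and 1 fell (7.14% each), with a median of −2.84. Igfbp1, which encodes a binding protein of insulin-like growth factors, had 87.5, 84.8 and 87.6 CPM in Control and 0, 10.3 and 1.08 CPM in DKO and fell by 4.68 (edgeR adjusted p = 0.00467). Il6, the interleukin 6 gene, had 0 reads in Control and 12, 3 and 16 in DKO, at least 152-fold higher with Control set at 3 counts over its libraries (edgeR adjusted p = 0.000936). The calls of Saa3 and Igfbp1 were lost on the scale of abundant liver genes (edgeR adjusted p = 0.0999 and 0.13), and that of Igfbp1 also with background reads subtracted.

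**Figure D5:**
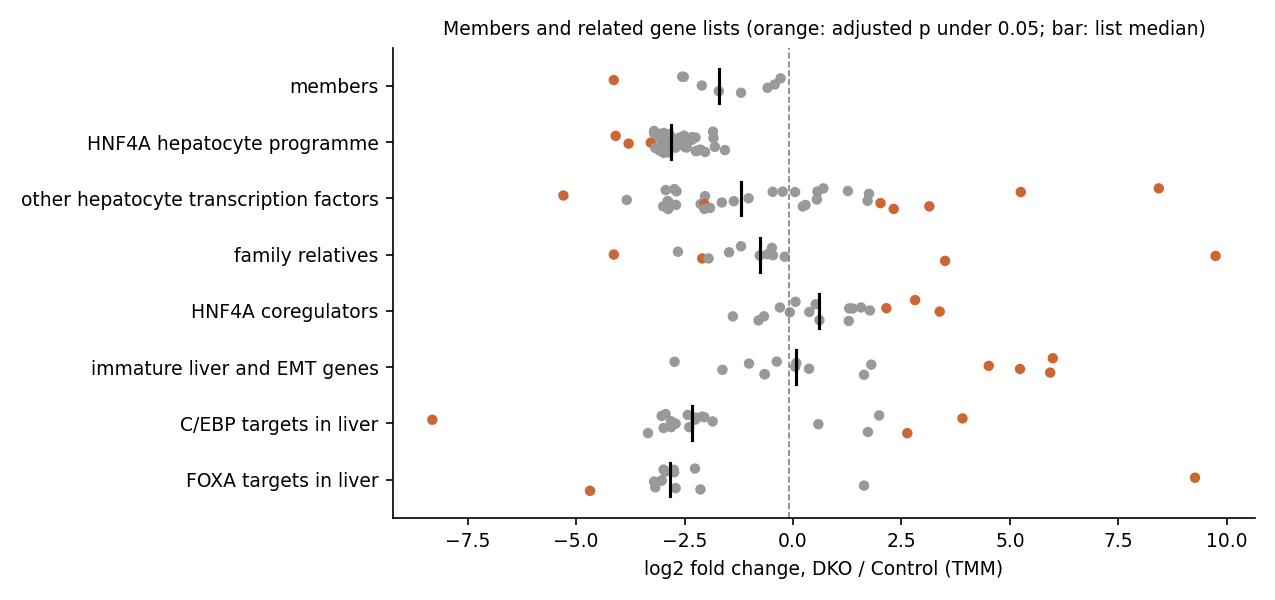
Log2 fold change of DKO against Control for the tested genes of each list, with a point per gene (orange where the adjusted p is under 0.05), a bar at each list's median and a dashed line at the median of all tested genes; members are the 9 genes. The HNF4A list has a median of −2.81, the C/EBP list −2.32, the FOXA list −2.84 and the coregulators 0.61.

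Of 17 HNF4A coregulators, 3 rose (17.6%, against 31.3% of all tested genes) and 0 fell, with a median of 0.61. Ppargc1b, a coactivator of nuclear receptors, had 10.3, 5.29 and 6.13 CPM in Control and 63.6, 25.8 and 136 CPM in DKO and rose by 3.38 (edgeR adjusted p = 0.00485). Crebbp, a histone acetyltransferase gene, rose by 2.15 (edgeR adjusted p = 0.0201) and Ppargc1a by 2.81 (edgeR adjusted p = 0.0386). Ppargc1a had 6.95, 5.65 and 6.75 CPM in Control and 58.6, 1.72 and 74.7 CPM in DKO, so DKO replicate 2, with 1 read, lay below every Control library. The calls of Crebbp and Ppargc1a were lost with the replicate block and without any one of the Control libraries. That of Ppargc1a was also lost with background reads subtracted, with limma-voom and without DKO replicate 3, and its value turned to −1.89 with DKO replicate 2 alone.

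Of 34 other hepatocyte transcription factors, 5 rose (14.7%) and 2 fell (5.88%), against 31.3% and 12.8% of all tested genes, with a median of −1.19. Atf5, a leucine zipper factor, had 1331, 740 and 545 reads in Control and 0, 4 and 0 in DKO and fell by 5.29 (edgeR adjusted p = 0.00406). Cux2, a cut-homeodomain relative of the ONECUT genes, had 2, 1 and 3 reads in Control and 18, 45 and 100 in DKO and rose by 8.43 (edgeR adjusted p = 0.000671). The background rate alone gave 15.2, 12.8 and 32.9 reads for Cux2, which is itself among the genes that set that rate. The others, of which all but Nr2f1 were named after their values were seen, were Nr1i2, which encodes a xenobiotic receptor and fell by 2.04, and Nr2f1, Tcf7l2, Gata6 and Nfia, which rose by 5.25, 3.14, 2.32 and 2.02. Nr2f1 had 7, 13 and 24 reads in DKO, where the background rate alone gave 8.39, 7.40 and 16.2. The calls of Nr1i2, Tcf7l2, Gata6 and Nfia were lost without any one of the Control libraries, and those of Nr1i2 and Gata6 also with background reads subtracted. Nr1i2 turned to 3.14 on the scale of abundant liver genes. The calls of Nr1i2, Gata6 and Nfia were lost with the replicate block, that of Nr1i2 without normalization factors, those of Gata6 and Nfia with no filter, and that of Gata6 with limma-voom and without DKO replicate 2. The Atf5 call was lost on the scale of abundant liver genes (−2.64, edgeR adjusted p = 0.0628).

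Among 13 tested relatives of the 9 genes by family, Foxa1, Foxa2 and Foxa3 included, 2 rose and 2 fell (15.4% each). Of all tested genes, 31.3% rose and 12.8% fell. Onecut3, the remaining ONECUT gene, had 0 reads in Control and 4, 13 and 24 in DKO, at least 201-fold higher with Control set at 3 counts over its libraries (edgeR adjusted p = 0.00109), where the background rate alone gave 7.87, 6.94 and 15.2 reads. Foxp1, a forkhead gene, rose by 3.50 (edgeR adjusted p = 0.0059), and Cebpg, a C/EBP gene, fell by 2.09 (edgeR adjusted p = 0.0301). The Foxp1 call was lost without Control replicate 2 or 3 and the Cebpg call without any one of the Control libraries. The Cebpg call was also lost without normalization factors and with background reads subtracted, and on the scale of abundant liver genes Cebpg turned positive, at 3.56.

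Of 15 tested genes of immature liver and of epithelial to mesenchymal change, 4 rose (26.7%, against 31.3% of all tested genes) and 0 fell, with a median of 0.08. Sox9, a factor of bile duct and progenitor cells, had 8.32, 2.92 and 4.05 CPM in Control and 99.3, 115 and 136 CPM in DKO and rose by 4.51 (edgeR adjusted p = 0.000857). Sox4 rose by 5.99 (edgeR adjusted p = 0.00109) and Prom1, a progenitor cell surface gene, by 5.23 (edgeR adjusted p = 0.00086). The remaining gene, the fetal growth factor gene Igf2, named after its value was seen, rose by 5.93 (edgeR adjusted p = 0.00121). Igf2 had 28, 4 and 13 reads in DKO, where the background rate alone gave 8.63, 7.29 and 18.7. Of 5 tested cholangiocyte markers 3 rose and 1 fell, with summed CPM of 79.0 to 100.4 in Control and 129, 174 and 227 in DKO. Sox9 is itself 1 of these markers and held 99.3, 115 and 136 CPM of those DKO sums. In Control it held 8.32, 2.92 and 4.05 CPM, so the higher sums in DKO rest largely on Sox9. Of 3 tested T and B cell markers 3 rose, and of 3 tested neuron markers 2 rose. Summed CPM of the T and B cell markers were only 2.49 to 4.50 in Control, against 47.1, 65.4 and 90.9 in DKO. Of 6 tested sinusoidal endothelium markers 1 rose and 1 fell. Of 6 Kupffer cell and macrophage markers and of 6 stellate cell markers 0 rose and 0 fell. Summed CPM of the Kupffer cell and macrophage markers were nevertheless 205 to 266 in Control and 11.5, 99.8 and 117 in DKO. Their median log2 fold change was −1.16. Those of the stellate cell markers were 214 to 338 in Control and 153, 139 and 328 in DKO, with a median of −0.29. The 1 tested pancreas acinar marker fell. The part of other cell types in these values was not tested.

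Across the 6 libraries, the profile of Cebpa was the closest to that of Hnf4a among the other 8 genes (Pearson r of log2(CPM + 1) = 0.995). Foxa2, at 0.907, Foxa1, at 0.897, and Prox1, at 0.888, followed. Cebpb was at 0.751 and Onecut1, the least like Hnf4a, at 0.463. Of 9817 other genes with at least 5 CPM in Control, the median r was 0.82, 732 were over 0.99 and 2555 over 0.95. Among them Cebpa would stand at percentile 97.0, Foxa2 at 63.5, Foxa1 at 61.6 and Prox1 at 60.1. High values were thus common. The closest were Col18a1, a collagen gene, Kng2, a kininogen gene, and Tcp1, a chaperonin gene. Next came Eef1g, a translation elongation factor gene, and Tufm, a mitochondrial elongation factor gene. The points share libraries and their scaling, and the values are a description with no test.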

How the data were processed

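RNA of mouse liver was sequenced in 3 Control and 3 DKO libraries. The authors deposited a raw count of reads for each Ensembl gene ID. The submitters' processing notes name STAR, HTSeq and mm10. Tool versions, annotation release and strand setting were not given in the sources used here. Without a known strand setting, reads of a gene and of an overlapping or antisense gene cannot be told apart, and HTSeq by default leaves out reads that align to several places. Rows without a gene, 65.1% to 66.7% of Control reads and 95.3% to 97.3% of DKO reads, were left out before fitting. Total reads were 37000776 to 45427473 in Control and 11462053 to 31478146 in DKO. Without molecular identifiers, intervals and limits cover counting error only.

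Groups followed the sample titles. Fits used edgeR 4.0.16 (R 4.3.3) and its two-sided quasi-likelihood test with TMM and filterByExpr, with both groups and no covariate. Benjamini-Hochberg adjustment was over all 15561 tested genes. The fit was tested on simulated data. Those were drawn from Control proportions, with less spread between libraries than here and without background reads. They therefore do not show how the test performs on the DKO libraries. Alternatives were DESeq2 1.42.0, limma-voom (limma 3.58.1), other scalings, background subtraction, no filter, the replicate number as a block, and each library left out in turn. DKO replicate 2 alone against Control, the shares within families and 2 of the 3 HNF1 motif forms were added after seeing the data. Positions and exonic lengths came from GENCODE M21 and start-site sequences from RefSeq on GRCm38.p6. A limit for 0 reads was set at 3 counts. The members and gene lists were chosen with earlier results of these data known. Named genes are the 9 members and, by list, up to 3 with the smallest adjusted p and up to 2 with the highest Control level, of which the text gives a part, plus genes overlapping a member and the 5 genes most like Hnf4a. Called list genes outside this rule are said to be so where named.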

Additional observations from a re-analysis of the deposited data

How the results depend on the processing

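Under 15 alternatives to TMM in edgeR, the fold changes of the 9 members kept direction and side of the threshold in 106 cases, newly passed it in 16, lost it in 1 and reversed in 12. With DESeq2's size factors, 3577 genes, 2 members and 20 HNF4A programme genes fell. With DESeq2, 4776 genes, 3 members and 45 programme genes fell, and with no filter 4650, 5 and 39, while 11477 rose. With background reads subtracted, 2302 of 13333 tested genes rose and 2771 fell, 2 members and 1 programme gene fell, and Cebpb was at 0.0719. Without normalization factors, Onecut2 was at 0.50 and Ccnd1 at 0.34. Scaled on abundant liver genes, 9718 genes rose and 85 fell, 1 member rose, and 0 members and 0 programme genes fell. On that scale log2 fold changes were 0.14 for Hnf4a, 1.19 for Foxa2, 3.42 for Foxa3, 3.85 for Cebpb, 2.54 for Onecut1, 5.19 for Onecut2 and 3.42 for Prox1. Others were 0.81 for Cyp8b1, 0.81 for Apoa4, 0.87 for F7, 0.13 for Mlxipl, 0.32 for Creb3l3, 3.56 for Cebpg, 2.85 for Foxo3, 3.76 for Kat2b, 1.76 for Fn1, 5.0 for Ccnd1, 2.00 for Hpx, 0.74 for Tcp1, 0.25 for Eef1g, 0.50 for Tufm, 3.14 for Nr1i2, 0.51 for Tmem189 and 0.0498 for Prox1os. With DKO replicate 2 alone, chosen after seeing the data, 4374 genes, 3 members and 46 programme genes fell, with Foxa2 at 0.45, Onecut2 at 0.0750, Ppargc1a at −1.89 and Ccnd1 at 0.24. Leaving out one library at a time, 567 to 4492 genes, 1 to 5 members and 1 to 43 programme genes fell, Onecut2 ranged from −0.66 to 0.0576 and Ccnd1 from −1.60 to 0.11. The cause of these changes was not tested. Same-numbered libraries shared only a number (correlations of 0.131, 0.085 and −0.026). With the replicate block 4143 genes rose, and 2179 genes, 1 member and 11 programme genes fell. At the depth of the DKO libraries a count of 0 allows up to 3.25 to 5.16 CPM, above the mean DKO level of Foxa1.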

Other observations

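Several annotated genes overlap the members or lie antisense to them, and with an unknown strand setting their reads cannot be told apart where exons are shared. Tmem189, which shares 312 exonic bases with Cebpb on the opposite strand, had 352, 679 and 620 reads in Control and 0, 0 and 11 in DKO, and fell by 3.54 on the log2 scale (edgeR adjusted p = 0.0289). That call was lost without any one of the Control libraries, with DKO replicate 2 alone and on the scale of abundant liver genes, where the value was 0.51. Cebpb itself kept 15, 62 and 162 reads in DKO. Prox1os, which shares 133 exonic bases with Prox1, had 67, 24 and 34 reads in Control and 0, 0 and 1 in DKO (log2 fold change −3.02, edgeR adjusted p = 0.0603). Gm28172, antisense to Prox1 with 0 shared exonic bases, had 2, 0 and 0 reads in Control and 24, 13 and 50 in DKO and rose by 8.84 (edgeR adjusted p = 0.00069). Hnf4aos, antisense at Hnf4a with 0 shared exonic bases, had 16, 26 and 20 reads in Control and 0 in all DKO libraries.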
